A study of Mus musculus with 30 samples.

Results

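The expression of 42 listed genes of glucose uptake, glycolysis, lactate, pyruvate dehydrogenase, gluconeogenesis and the pentose phosphate pathway was followed on 30 Affymetrix Mouse Gene 1.0 ST arrays. Of the 42 genes, 38 had a probe set naming that gene alone and are described here, out of 19938 genes tested. Gpi1, Pfkfb1, Eno1 and G6pdx had no probe set of their own and dropped out. Where a gene had several probe sets, the brightest over all arrays was used. The list was drawn up by the genes' roles, with earlier results of these data known.

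Cells take up glucose through facilitative transporters, trap it as glucose 6-phosphate with hexokinase, and break it down by glycolysis to pyruvate, with phosphofructokinase as the main control point. Pyruvate is then either reduced to lactate by lactate dehydrogenase and exported with protons by monocarboxylate transporters, or passed to the mitochondria, where the pyruvate dehydrogenase complex makes acetyl-CoA and is switched off by its kinases and on by its phosphatases. The pentose phosphate branch supplies ribose and NADPH, and the gluconeogenic enzymes run the irreversible steps backwards. Pluripotent stem cells are known for a high rate of glycolysis, which changes as they differentiate.

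The series compared definitive endoderm made in culture with undifferentiated cells and with embryonic endoderm, in 10 groups of 3 biological replicates. Unamplified RNA was labelled for day 5 cells, sorted as Kit positive and Sox2 dim, and for day 0 undifferentiated cells, sorted as Sox2 bright, of each of the ES cells, the iPS (induced pluripotent stem) cell clone ST5 and the iPS clone ST8, all C57BL/6x129SvJae. Amplified RNA was labelled for foregut endoderm of E8.25 Swiss webster embryos (positive for ENDM1 and Epcam, low side scatter), for the Epcam positive and ENDM1 negative embryo cells set against it, and for ES cells at day 5 and day 0 with the same gates as above. Each iPS line is 1 clone, so ST8 against ST5 compares single clones. At day 5, clone and extent of differentiation cannot be told apart. Embryo RNA was extracted with another kit than RNA of the cultured cells. Levels are log2 expression values and were compared within a labelling only, and never between genes. Differences are given ± SE from a limma fit, and a gene was called where its p, adjusted by Benjamini-Hochberg over all 19938 genes, was under 0.05.

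No pair of arrays held identical values, and replicates correlated at 0.9827 to 0.9979 within groups. Array medians were 5.5 to 5.57 for unamplified and 5.69 to 5.74 for amplified RNA. Of 12 pluripotency markers 11 fell at day 5 in ES cells and all 12 in each clone, while 9, 10 and 10 of 10 definitive endoderm markers and 5 of 6 visceral endoderm markers in each line rose in ES, ST5 and ST8 cells. Day 5 arrays differed within groups. Nanog, a core pluripotency factor, stood at 8.18, 9.24 and 9.24 on the ES day 5 arrays, at 5.96, 6.58 and 5.78 on the ST5 arrays and at 9.93, 6.85 and 9.84 on the ST8 arrays. ES replicate 1, ST8 replicate 2 and all 3 ST5 arrays were thus lower than the other day 5 arrays. All 10 fibroblast markers were lower at day 5 in each line: their mean level was 5.16 to 5.61 at day 5 and 7.49 to 7.83 at day 0 in ES cells, 5.08 to 5.2 against 7.75 to 8.02 in ST5 cells, and 5.13 to 5.39 against 7.73 to 8.02 in ST8 cells. The part of the fibroblast signal in the day 0 levels below was not tested, and in such bulk samples fewer cells of a type and less RNA per cell cannot be told apart.

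At day 5 the genes of glucose uptake and lactate export were higher than at day 0 in all 3 lines, and Pdha1 and Pdhb of the pyruvate dehydrogenase complex and 2 of its kinases, Pdk1 and Pdk4, were lower, while Hk1, Pfkm and Pkm of the glycolytic trunk were not called in any line. In ES cells 26 of 38 members (68.4%) were called, 15 higher and 11 lower, where 38.6% of all genes were called (18.9% higher and 19.7% lower). In ST5 cells 25 were called, 13 higher and 12 lower, against 47.9% of all genes (23.2% higher and 24.8% lower), and in ST8 cells 25, 16 higher and 9 lower, against 40.5% (21% higher and 19.5% lower). Most members were bright, and among genes at or above the median level, 58.8% were called in ES, 69.6% in ST5 and 60.5% in ST8 cells, beside 23, 22 and 23 of the 32 members that bright. The median difference of the members was 0.09 in ES, 0.01 in ST5 and 0.18 in ST8 cells, beside 0.02, -0.04 and -0.01 over all genes. Called in the same direction in all 3 lines were 11 members that rose, beside 13.8% of all genes, and 9 that fell, beside 14.3%; no member was called higher in a line and lower in another. The 3 differences rest on separate arrays. Day 5 and day 0 levels did not overlap for 28, 31 and 24 members in ES, ST5 and ST8 cells. Over all 19938 genes this held for 9612, 11372 and 9846, so a lack of overlap is common here.

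**Figure D1:**
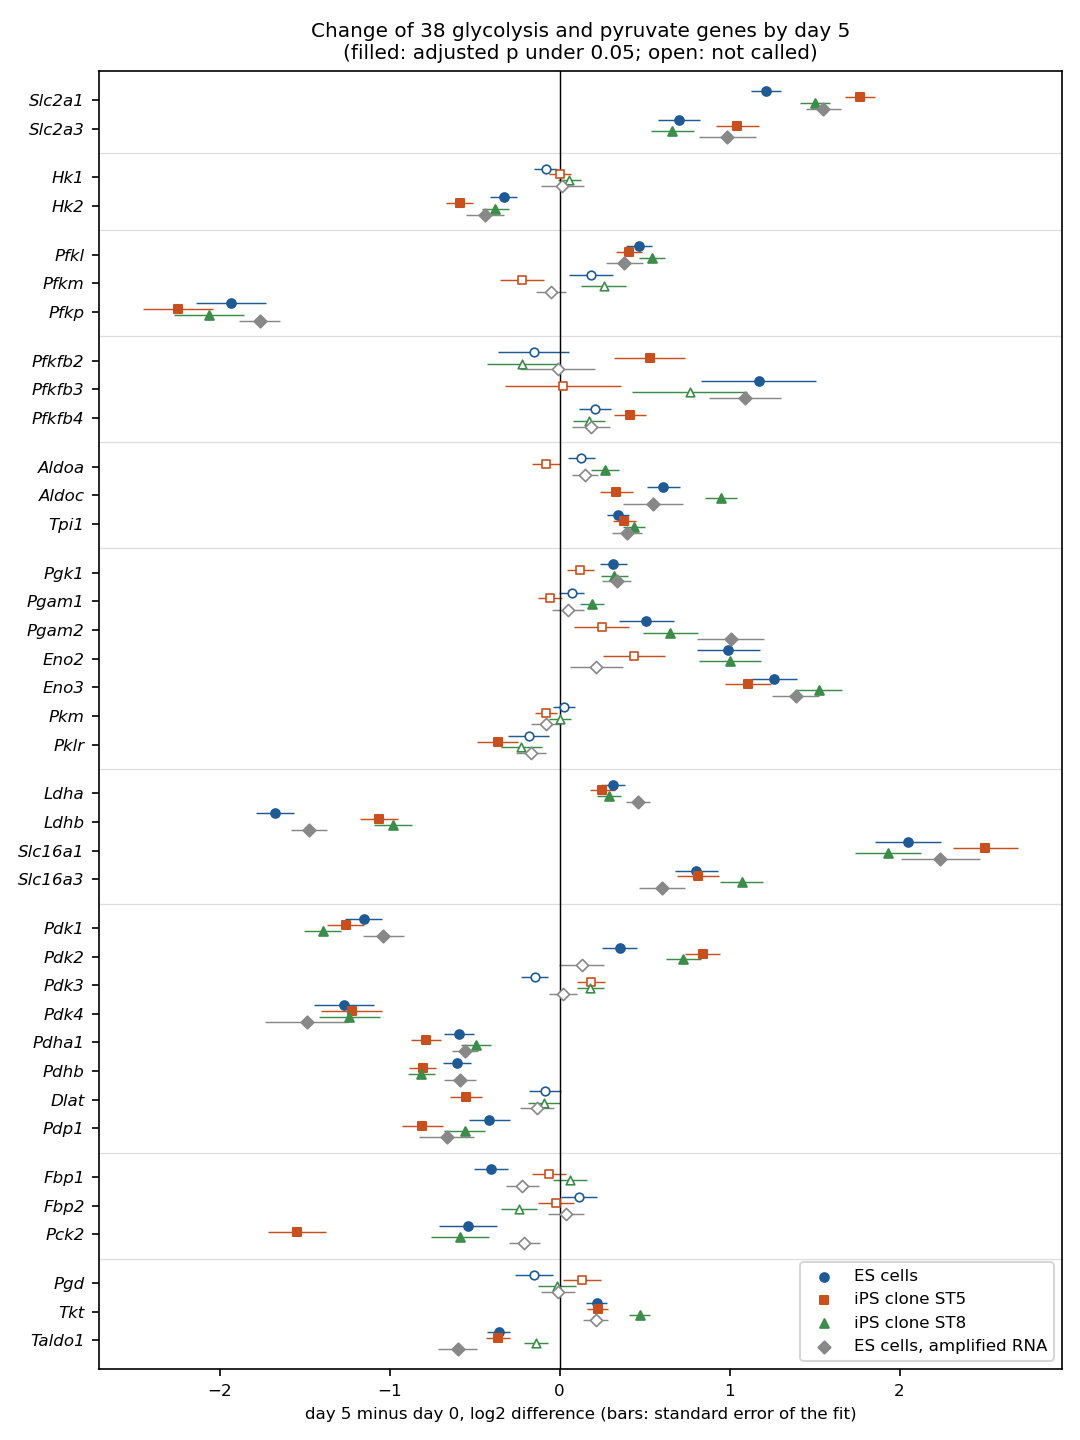
Log2 difference of day 5 minus day 0 (x axis, log2 units) for each of the 38 members (y axis, grouped by role), with points for ES, ST5 and ST8 cells and amplified ES cells, filled where called, and bars of 1 SE from the limma fit. Slc16a1 lies farthest right, at 1.93 to 2.51, and Pfkp farthest left, at -2.24 to -1.76, with Pkm and Hk1 near 0.

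Both glucose transporters rose. Slc2a1 encodes GLUT1, the transporter of basal glucose uptake. Its level was 12.48, 12.22 and 12.23 at day 5 and 11.05, 11.06 and 11.18 at day 0 in ES cells, 12.48, 12.56 and 12.52 against 10.85, 10.70 and 10.71 in ST5 cells, and 12.30, 12.55 and 12.29 against 10.79, 10.997 and 10.85 in ST8 cells. Every day 5 array lay above every day 0 array. The log2 difference was 1.21 ± 0.09 (adjusted p = 2.01e-08) in ES, 1.77 ± 0.09 (adjusted p = 1.65e-10) in ST5 and 1.502 ± 0.09 (adjusted p = 1.43e-09) in ST8 cells. Slc2a3 encodes GLUT3, a transporter of high affinity. It stood at 12.67, 12.15 and 12.21 at day 5 and 11.65, 11.60 and 11.66 at day 0 in ES cells, at 12.67, 12.74 and 12.67 against 11.65, 11.61 and 11.68 in ST5 cells and at 12.36, 12.79 and 12.32 against 11.79, 11.93 and 11.76 in ST8 cells. The groups did not overlap, and ES replicate 1 and ST8 replicate 2 were the highest of their day 5 groups. It rose by 0.70 ± 0.12 (adjusted p = 0.000241), 1.05 ± 0.12 (adjusted p = 2.75e-06) and 0.66 ± 0.12 (adjusted p = 0.000376) in ES, ST5 and ST8 cells.

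The monocarboxylate transporters, which move lactate and protons across the plasma membrane, rose as well. Slc16a1 encodes MCT1 and had the largest rise of all members in each line. It was at 12.30, 11.46 and 11.61 on day 5 arrays and 9.74, 9.73 and 9.75 on day 0 arrays of ES cells, at 12.22, 12.38 and 12.37 against 9.93, 9.77 and 9.74 in ST5 cells, and at 11.62, 12.40 and 11.63 against 9.89, 10.03 and 9.93 in ST8 cells. Day 0 arrays lay close together, whereas day 5 arrays spread more, and ES replicate 1, ST8 replicate 2 and the 3 ST5 arrays lay above the other 4. The differences were 2.05 ± 0.19 (adjusted p = 3.78e-07) in ES, 2.51 ± 0.19 (adjusted p = 2.42e-08) in ST5 and 1.93 ± 0.19 (adjusted p = 6.25e-07) in ST8 cells. Slc16a3, which encodes MCT4, a lactate exporter of glycolytic cells, was at 9.51, 9.56 and 9.66 at day 5 and 8.68, 8.85 and 8.80 at day 0 in ES cells. It rose by 0.80 ± 0.13 (adjusted p = 7.34e-05) there, by 0.81 ± 0.13 (adjusted p = 4.03e-05) in ST5 and by 1.07 ± 0.13 (adjusted p = 3.54e-06) in ST8 cells, without overlap of the groups in any line.

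The lactate dehydrogenase subunits moved in opposite directions. Ldhb encodes the H subunit, the main form in oxidative tissues such as heart. Its level was 7.22, 7.17 and 7.04 at day 5 and 8.95, 8.68 and 8.81 at day 0 in ES cells, 7.17, 7.22 and 7.02 against 8.16, 8.13 and 8.31 in ST5 cells, and 7.51, 7.02 and 7.34 against 8.27, 8.39 and 8.16 in ST8 cells. The day 5 levels of the 3 lines overlapped, and the ES day 0 arrays lay above those of both clones. The change was -1.67 ± 0.11 (adjusted p = 6.34e-09) in ES, -1.06 ± 0.11 (adjusted p = 6.25e-07) in ST5 and -0.98 ± 0.11 (adjusted p = 2.29e-06) in ST8 cells. A second probe set of Ldhb gave -1.495, -0.97 and -0.90 in the same order. Ldha encodes the M subunit, the main form in glycolytic tissues. It stood at 12.21, 12.19 and 12.29 at day 5 and 11.89, 11.91 and 11.95 at day 0 in ES cells and rose by 0.32 ± 0.07 (adjusted p = 0.00218), with 0.25 ± 0.07 (adjusted p = 0.00835) in ST5 and 0.29 ± 0.07 (adjusted p = 0.00376) in ST8 cells. The groups did not overlap, and the ST5 call did not hold without ST5 day 0 replicate 3 (adjusted p = 0.054).

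Promoter windows of some members that moved are printed here because hypoxia-inducible factor and Myc, textbook regulators of this pathway, bind short motifs that can be looked up in them. The sequences are the 250 bases before the annotated start, 5′ to 3′ on the strand of the gene, from RefSeq on GRCm38.p6. Capitals mark ACGTG or GCGTG on either strand, the core letters of hypoxia response elements. The E-box CACGTG, which Myc binds, contains ACGTG on both strands and is counted within it. Slc2a1, which rose, lies at chr4:119108495-119108744 (plus strand).
Slc2a1: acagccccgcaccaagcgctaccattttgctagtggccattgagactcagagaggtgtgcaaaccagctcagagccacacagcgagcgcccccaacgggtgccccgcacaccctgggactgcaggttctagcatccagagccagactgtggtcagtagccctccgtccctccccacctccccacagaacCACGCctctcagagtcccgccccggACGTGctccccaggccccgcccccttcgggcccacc
Slc16a1, which rose most, lies at chr3:104638414-104638663 (plus strand).
Slc16a1: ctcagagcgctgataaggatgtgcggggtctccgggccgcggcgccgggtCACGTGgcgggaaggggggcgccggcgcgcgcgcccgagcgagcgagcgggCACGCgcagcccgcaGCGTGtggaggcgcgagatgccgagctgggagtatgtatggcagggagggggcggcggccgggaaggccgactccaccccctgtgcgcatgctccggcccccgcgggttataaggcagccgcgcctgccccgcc
The first of 2 Ldha windows, the gene that rose little, lies at chr7:46845554-46845803 (plus strand).
Ldha: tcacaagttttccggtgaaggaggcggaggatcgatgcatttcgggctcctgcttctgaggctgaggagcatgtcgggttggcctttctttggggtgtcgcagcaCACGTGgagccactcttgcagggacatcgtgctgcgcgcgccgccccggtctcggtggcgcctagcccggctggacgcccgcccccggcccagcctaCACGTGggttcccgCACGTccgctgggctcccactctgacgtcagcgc
Ldhb, which fell, lies at chr6:142507958-142508207 (minus strand).
Ldhb: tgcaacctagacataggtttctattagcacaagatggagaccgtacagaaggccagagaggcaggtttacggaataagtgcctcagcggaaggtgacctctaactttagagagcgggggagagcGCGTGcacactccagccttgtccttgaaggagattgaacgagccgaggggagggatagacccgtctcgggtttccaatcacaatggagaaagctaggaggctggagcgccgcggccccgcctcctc
Pfkp, which fell most, lies at chr13:6648772-6649021 (minus strand).
Pfkp: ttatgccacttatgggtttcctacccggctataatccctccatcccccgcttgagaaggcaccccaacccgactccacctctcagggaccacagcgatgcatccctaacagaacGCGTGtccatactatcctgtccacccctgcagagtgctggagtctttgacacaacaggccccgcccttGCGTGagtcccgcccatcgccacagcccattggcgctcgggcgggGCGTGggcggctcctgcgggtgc
Counting both strands, Slc2a1 held 2 matches, Slc16a1 4, with 1 CACGTG, the Ldha window 5, with 2 CACGTG, Ldhb 1 and Pfkp 3. Each CACGTG counts as 2 matches here, 1 per strand, though it is a single marked site. Every window printed here held a match, and a link between matches and direction was not tested. Other members that moved had none: the only windows of Tpi1, Eno2 and Pgam2, which rose in 1 line or more, held 0 matches. The second Ldha window, not printed, held 1. Of 40 listed members with a window, 33 held a match in at least 1, and 43 of their 61 windows (70.5%) did. Windows of a gene can overlap, and no share per gene was taken over all genes. Over all 32851 windows the share was 38.6% for either motif, 16.6% for ACGTG, 28.2% for GCGTG and 6.02% for CACGTG. All these motifs contain CG, and the windows were not matched for base composition, so the shares are not compared further. A match describes the letters and shows no binding.

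Among the enzymes that prepare glucose for cleavage, the phosphofructokinase isoforms differed. Pfkp encodes the platelet form. It stood at 7.69, 7.21 and 7.42 at day 5 and 9.57, 9.18 and 9.37 at day 0 in ES cells, at 7.78, 7.31 and 6.79 against 9.36, 9.43 and 9.82 in ST5 cells and at 8.14, 7.56 and 7.89 against 9.94, 9.94 and 9.89 in ST8 cells. All day 5 arrays lay well below all day 0 arrays. It had the largest fall of all members, -1.93 ± 0.21 (adjusted p = 1.43e-06) in ES, -2.24 ± 0.21 (adjusted p = 1.65e-07) in ST5 and -2.06 ± 0.21 (adjusted p = 6.44e-07) in ST8 cells. Pfkl, the liver form, was at 10.15, 9.89 and 10.16 at day 5 and 9.54, 9.496 and 9.54 at day 0 in ST8 cells and rose by 0.54 ± 0.08 (adjusted p = 2.55e-05), with 0.47 ± 0.08 (adjusted p = 0.000117) in ES and 0.41 ± 0.08 (adjusted p = 0.000284) in ST5 cells. Pfkm, the muscle form, was not called in any line, with differences of 0.18 ± 0.13, -0.22 ± 0.13 and 0.26 ± 0.13 in ES, ST5 and ST8 cells. Hk2, the inducible hexokinase, was at 9.40, 9.36 and 9.30 at day 5 and 9.92, 9.90 and 10.01 at day 0 in ST5 cells, with no overlap. The change there was -0.59 ± 0.08 (adjusted p = 1.10e-05), with -0.33 ± 0.08 (adjusted p = 0.00329) in ES and -0.38 ± 0.08 (adjusted p = 0.00102) in ST8 cells, while Hk1, the widely expressed form, was not called, at -0.08 ± 0.07, 0.00 ± 0.07 and 0.06 ± 0.07. A second, dimmer probe set of Hk1 gave -0.23, -0.25 and -0.13 in ES, ST5 and ST8 cells. Its mean over all arrays was 6.73, against 11.72 for the one used.

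The bifunctional PFKFB enzymes make and break fructose 2,6-bisphosphate, the activator of phosphofructokinase. Pfkfb3, the isoform with the strongest kinase activity, was at 7.31, 7.88 and 7.88 at day 5 and 6.44, 6.60 and 6.52 at day 0 in ES cells, at 6.70, 6.82 and 6.59 against 7.01, 6.58 and 6.46 in ST5 cells, and at 8.18, 6.34 and 8.14 against 6.76, 6.94 and 6.67 in ST8 cells. ES replicate 1 was the lowest of its day 5 group, the ST5 days overlapped, and ST8 replicate 2 lay below all 3 ST8 day 0 arrays while the other 2 lay above them. It rose in ES cells, by 1.17 ± 0.34 (adjusted p = 0.0109), and was not called in ST5, at 0.02 ± 0.34 (adjusted p = 0.968), or ST8 cells, at 0.77 ± 0.34 (adjusted p = 0.0851). Pfkfb2 was instead highest on ES replicate 1 and ST8 replicate 2, with 7.26, 6.33 and 6.41 at ES day 5, 7.61, 7.64 and 7.69 at ST5 day 5 and 6.96, 7.53 and 6.75 at ST8 day 5. It was called in ST5 cells, 7.61, 7.64 and 7.69 at day 5 against 7.09, 6.98 and 7.27 at day 0, with a difference of 0.53 ± 0.21 (adjusted p = 0.0457). That call was lost without any of the 5 following arrays: ST5 day 0 replicates 1 and 2 (adjusted p = 0.0926 and 0.138) and ST5 day 5 replicates 1, 2 and 3 (0.0797, 0.0879 and 0.103). It was also lost with quantile normalization (0.104), a common array median (0.0619), an intensity trend (0.0551) and all 30 arrays in the fit (0.0575). Pfkfb4 was called only in ST5 cells among the 3 lines, at 0.42 ± 0.09 (adjusted p = 0.00125), a smaller difference than the 0.5 log2 units used for choosing which members to describe, and is named as the remaining isoform; the differences between lines were not called.

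Among the later steps, Aldoc, Eno3, Eno2 and Pgam2 were called with a difference of at least 0.5 in 1 line or more, and the widely expressed Aldoa, Tpi1, Pgk1, Pgam1 and Pkm in none. Eno3, muscle enolase, was at 7.87, 8.52 and 8.52 at day 5 and 7.08, 6.88 and 7.18 at day 0 in ES cells, at 7.77, 7.75 and 7.76 against 6.77, 6.60 and 6.58 in ST5 cells and at 7.90, 8.10 and 8.04 against 6.45, 6.44 and 6.57 in ST8 cells. The days did not overlap in any line. It rose by 1.26 ± 0.14 (adjusted p = 1.50e-06), 1.11 ± 0.14 (adjusted p = 3.46e-06) and 1.53 ± 0.14 (adjusted p = 1.65e-07) in ES, ST5 and ST8 cells. Eno2, neuronal enolase, was at 6.83, 7.32 and 7.32 against 6.09, 6.21 and 6.19 in ES cells and at 7.66, 6.76 and 7.64 against 6.17, 6.46 and 6.42 in ST8 cells, again without overlap. It rose by 0.99 ± 0.18 (adjusted p = 0.000345) in ES and 1.001 ± 0.18 (adjusted p = 0.000296) in ST8 cells and was not called in ST5 cells, at 0.44 ± 0.18 (adjusted p = 0.059), with levels of 6.57, 6.44 and 6.53 against 6.11, 6.07 and 6.05. Aldoc, the brain aldolase, was at 9.12, 8.95 and 9.10 at day 5 and 8.51, 8.43 and 8.40 at day 0 in ES cells and at 9.55, 9.15 and 9.47 against 8.41, 8.48 and 8.43 in ST8 cells. It rose by 0.61 ± 0.10 (adjusted p = 8.30e-05) in ES, 0.33 ± 0.10 (adjusted p = 0.00843) in ST5 and 0.95 ± 0.10 (adjusted p = 7.50e-07) in ST8 cells, and the ST5 call was lost with all 30 arrays in the fit (adjusted p = 0.062).

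Pgam2, the muscle phosphoglycerate mutase, was at 5.83, 6.47 and 6.61 at day 5 and 5.91, 5.77 and 5.705 at day 0 in ES cells and at 5.99, 5.84 and 6.22 against 5.26, 5.28 and 5.55 in ST8 cells. ES day 5 replicate 1 lay within the day 0 values. It rose by 0.51 ± 0.16 (adjusted p = 0.0184) in ES and 0.65 ± 0.16 (adjusted p = 0.00355) in ST8 cells and was not called in ST5 cells, at 0.25 ± 0.16 (adjusted p = 0.227). The ES call did not hold without ES day 0 replicate 2 (adjusted p = 0.0503) or 3 (0.0654) or ES day 5 replicate 2 (0.0785) or 3 (0.11), nor in a fit of the ES arrays alone (0.0735). The widely expressed enzymes of neighbouring steps had smaller differences in ES, ST5 and ST8 cells. Tpi1, triose phosphate isomerase, rose by 0.34 ± 0.07, 0.38 ± 0.07 and 0.44 ± 0.07. Pgk1, phosphoglycerate kinase, was called in ES and ST8 cells, at 0.32 ± 0.08 (adjusted p = 0.00414) and 0.32 ± 0.08 (adjusted p = 0.00349), and the ST8 call was lost in a fit of the ST8 arrays alone (0.0607). Aldoa and Pgam1 were called in ST8 cells only, at 0.27 ± 0.08 (adjusted p = 0.0147) and 0.19 ± 0.07 (adjusted p = 0.0401). Aldoa did not hold without ST8 day 5 replicate 1 (0.0725) or 3 (0.0819), and Pgam1 without those (0.168 and 0.159) or ST8 day 0 replicate 1 (0.0832), 2 (0.0993) or 3 (0.0746). Pkm, pyruvate kinase of muscle and most proliferating cells, was not called in any line, with differences of 0.03 ± 0.07, -0.08 ± 0.07 and 0.00 ± 0.07. Pklr, the liver and red cell pyruvate kinase, was called in ST5 cells, at -0.36 ± 0.12 (adjusted p = 0.0195), and did not hold without ST5 day 0 replicate 3 (0.0518) or ST5 day 5 replicate 1 (0.135).

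**Figure D2:**
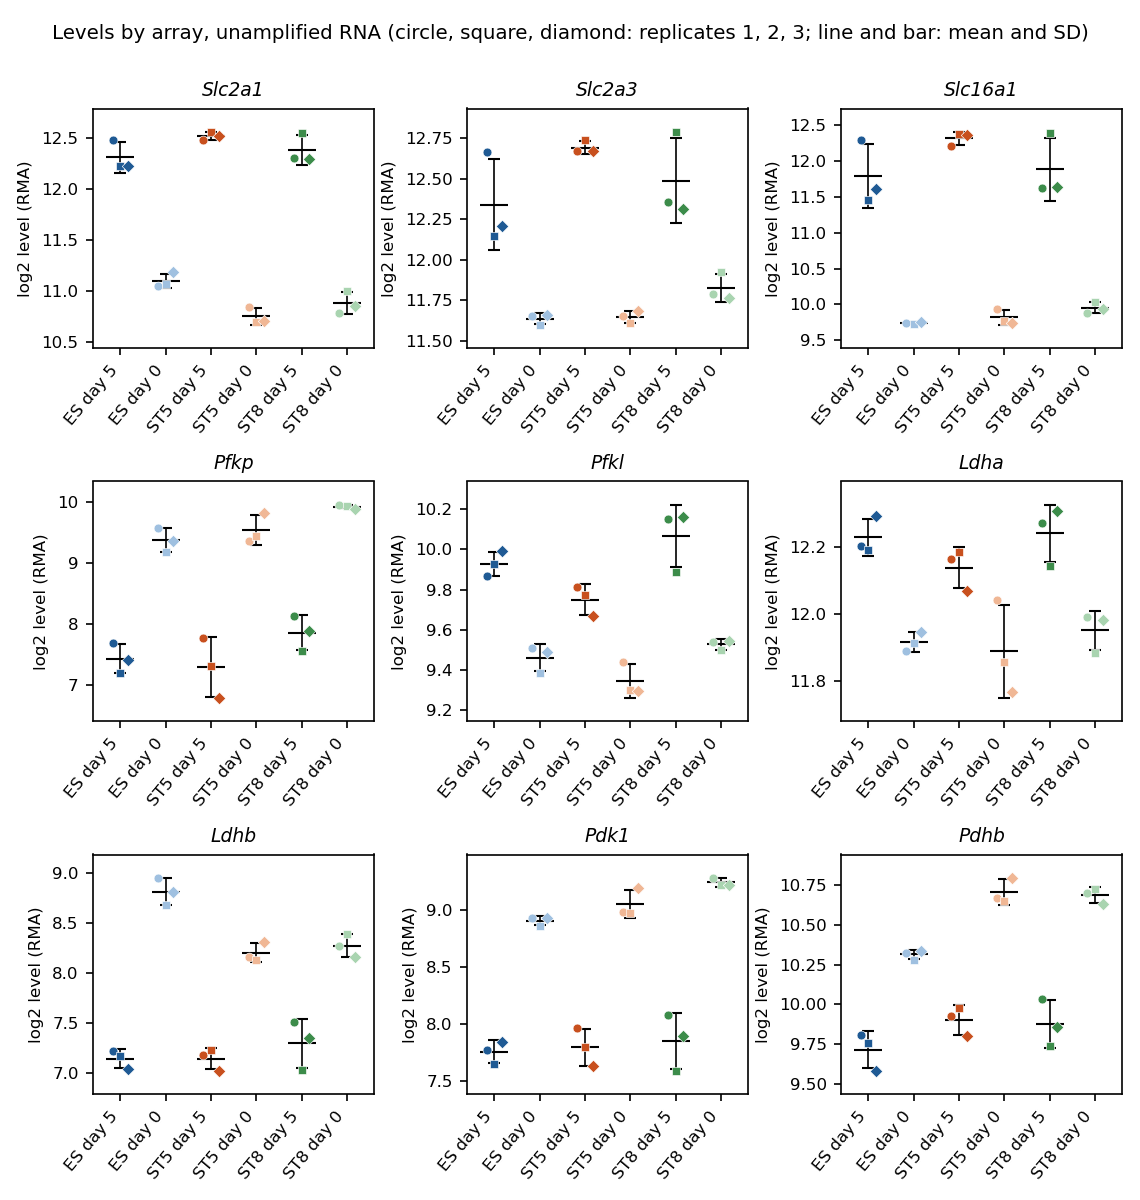
Log2 level (y axis) of selected members on every unamplified array, day 5 left of day 0 for ES, ST5 and ST8 cells, each point an array with its shape giving the replicate, and lines and bars the mean and SD of 3. Slc2a1 and Slc16a1 are higher and Pfkp, Ldhb and Pdk1 lower on all day 5 arrays.

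At the entry of pyruvate into the mitochondria, the complex and its regulators were mostly lower at day 5. Of 8 members of this group, 1 rose and 5 fell in ES cells, a group median of -0.50, and in each clone the same 6 were called in the same directions as in ES cells, with Dlat lower in ST5 cells in addition. Pdk1 encodes a kinase that inactivates the complex. It was at 7.77, 7.65 and 7.85 at day 5 and 8.93, 8.86 and 8.93 at day 0 in ES cells, at 7.96, 7.79 and 7.63 against 8.99, 8.97 and 9.20 in ST5 cells and at 8.08, 7.59 and 7.89 against 9.29, 9.22 and 9.23 in ST8 cells. The days did not overlap in any line. The change was -1.15 ± 0.11 (adjusted p = 3.72e-07), -1.26 ± 0.11 (adjusted p = 8.43e-08) and -1.39 ± 0.11 (adjusted p = 3.91e-08) in ES, ST5 and ST8 cells. Pdk4, the kinase induced by fasting in muscle, was at 4.69, 4.91 and 4.82 against 6.44, 5.60 and 6.18 in ES cells, 4.90, 4.77 and 4.79 against 6.05, 5.82 and 6.26 in ST5 cells and 4.91, 4.86 and 4.72 against 6.00, 6.40 and 5.80 in ST8 cells. Its day 0 arrays spread more than its day 5 arrays, and the days did not overlap. The day 5 levels of Pdk4 lay below the medians of those arrays. It changed by -1.27 ± 0.18 (adjusted p = 2.49e-05), -1.22 ± 0.18 (adjusted p = 2.20e-05) and -1.24 ± 0.18 (adjusted p = 2.95e-05).

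Pdk2, another kinase of the complex, went the other way. It was at 6.40, 6.44 and 6.59 at day 5 and 5.56, 5.72 and 5.62 at day 0 in ST5 cells and at 6.23, 6.66 and 6.40 against 5.76, 5.78 and 5.57 in ST8 cells, without overlap. It rose by 0.84 ± 0.10 (adjusted p = 3.82e-06) in ST5, 0.73 ± 0.10 (adjusted p = 2.62e-05) in ST8 and 0.35 ± 0.10 (adjusted p = 0.0117) in ES cells, and the ES call did not hold without ES day 0 replicate 3 (adjusted p = 0.0696). Pdk3 was not called in any line, at -0.15 ± 0.08, 0.18 ± 0.08 and 0.18 ± 0.08. The subunits Pdha1 and Pdhb form the E1 component that decarboxylates pyruvate. Pdha1 was at 10.04, 10.20 and 10.19 against 10.72, 10.73 and 10.74 in ES cells and Pdhb at 9.80, 9.75 and 9.58 against 10.32, 10.28 and 10.34. Neither overlapped between days in any line. Pdha1 changed by -0.59 ± 0.09 (adjusted p = 4.82e-05), -0.79 ± 0.09 (adjusted p = 1.40e-06) and -0.49 ± 0.09 (adjusted p = 0.000239) in ES, ST5 and ST8 cells, and Pdhb by -0.60 ± 0.08 (adjusted p = 1.79e-05), -0.81 ± 0.08 (adjusted p = 4.74e-07) and -0.81 ± 0.08 (adjusted p = 6.72e-07).

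Dlat, the E2 subunit that transfers the acetyl group, was at 8.46, 8.60 and 8.43 at day 5 and 9.10, 9.02 and 9.02 at day 0 in ST5 cells, a change of -0.55 ± 0.09 (adjusted p = 0.000117). In ES and ST8 cells it was not called, at -0.09 ± 0.09 and -0.09 ± 0.09. Pdp1, the phosphatase that switches the complex back on, was at 6.62, 6.57 and 6.58 against 7.36, 7.34 and 7.49 in ST5 cells and at 7.21, 6.61 and 7.07 against 7.47, 7.58 and 7.52 in ST8 cells. The days did not overlap, and replicate 2 was the lowest of the ST8 day 5 arrays. Pdp1 fell in all 3 lines, with differences of -0.81 ± 0.12 (adjusted p = 2.84e-05) in ST5, -0.56 ± 0.12 (adjusted p = 0.00121) in ST8 and -0.41 ± 0.12 (adjusted p = 0.0115) in ES cells, and the ES call did not hold without ES day 5 replicate 1 (adjusted p = 0.0642).

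Of the gluconeogenic enzymes, Pck2, the mitochondrial phosphoenolpyruvate carboxykinase, was at 7.32, 7.80 and 7.90 at day 5 and 8.16, 8.22 and 8.248 at day 0 in ES cells, at 6.42, 6.69 and 6.64 against 8.08, 8.16 and 8.15 in ST5 cells and at 7.94, 7.14 and 7.89 against 8.20, 8.30 and 8.22 in ST8 cells. The day 0 arrays of all lines lay close together, and ES replicate 1, ST8 replicate 2 and the 3 ST5 arrays were the lowest at day 5. It changed by -0.54 ± 0.17 (adjusted p = 0.0186) in ES, -1.55 ± 0.17 (adjusted p = 1.18e-06) in ST5 and -0.59 ± 0.17 (adjusted p = 0.0104) in ST8 cells. The ES call did not hold without ES day 0 replicate 3 (adjusted p = 0.0536) or ES day 5 replicate 1 (0.106), and the ST8 call was lost in a fit of the ST8 arrays alone (0.0688). Fbp1 and Fbp2, the fructose bisphosphatases, differed by less than 0.5 in all 3 lines, and Fbp1 was called in ES cells, at -0.40 ± 0.10 (adjusted p = 0.00421). Of the pentose phosphate enzymes, Pgd was not called in any line. Tkt, transketolase, rose by 0.22, 0.23 and 0.47 in ES, ST5 and ST8 cells, the ES call not holding in a fit of the ES arrays alone (adjusted p = 0.0507), and Taldo1, transaldolase, was lower in ES and ST5 cells, at -0.36 ± 0.07 (adjusted p = 0.000554) and -0.36 ± 0.07 (adjusted p = 0.000327).

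ES cells labelled after amplification gave a second set of arrays for day 5 against day 0. The sample titles do not say whether their cultures were those of the unamplified arrays. For some genes the replicates ran alike in both. Pfkfb2 at day 5 was at 7.36, 6.58 and 6.48 here and 7.26, 6.33 and 6.41 unamplified. Pdk4 at day 0 was at 6.66, 5.63 and 6.35 here and 6.44, 5.60 and 6.18 unamplified. The amplified arrays are thus not taken as independent of the unamplified ones. There 21 of 38 members were called, 12 higher and 9 lower, where 26.9% of all genes were called (13% higher and 13.8% lower), and among the brighter genes 40.7% were called beside 20 of 31 members. The median difference of the members was 0.03 and that of all genes -0.02. Slc16a1 was at 10.81, 9.53 and 9.84 at day 5 and 7.80, 7.71 and 7.94 at day 0, a rise of 2.24 ± 0.23 (adjusted p = 1.33e-05). Slc2a1 was at 11.42, 11.06 and 11.14 against 9.603, 9.65 and 9.71 and rose by 1.55 ± 0.10 (adjusted p = 2.68e-07). Replicate 1 was the highest of the day 5 arrays for both. Slc2a3 rose by 0.99 ± 0.17 (adjusted p = 0.000693), with 11.52, 10.72 and 10.76 against 10.18, 9.95 and 9.91, and Slc16a3 by 0.60 ± 0.14 (adjusted p = 0.00498), with 8.06, 8.08 and 8.20 against 7.42, 7.64 and 7.49. Eno3 was at 8.52, 8.75 and 9.06 against 7.42, 7.40 and 7.34 and rose by 1.39 ± 0.14 (adjusted p = 9.31e-06). None of these 5 genes overlapped between days, as was so for 26 members and for 7905 of all 19938 genes.

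Pfkfb3 was at 7.45, 7.80 and 7.83 at day 5 and 6.23, 6.92 and 6.65 at day 0 on the amplified arrays, a rise of 1.09 ± 0.21 (adjusted p = 0.0017). Pgam2 was at 6.12, 6.997 and 7.11 against 5.64, 5.89 and 5.68 and rose by 1.01 ± 0.20 (adjusted p = 0.00192). Day 5 replicate 1 was the lowest of its group for both. Aldoc was at 7.86, 7.42 and 7.88 against 7.01, 7.41 and 7.08, a difference of 0.55 ± 0.18 (adjusted p = 0.0364), and the call was lost without day 5 replicate 1 (adjusted p = 0.106) or 3 (0.123) or day 0 replicate 1 (0.126) or 3 (0.108). Pfkp was at 6.91, 6.62 and 6.65 against 8.65, 8.47 and 8.35, a change of -1.76 ± 0.12 (adjusted p = 3.16e-07). Ldhb was at 8.40, 8.19 and 8.11 against 9.86, 9.597 and 9.66, a change of -1.47 ± 0.11 (adjusted p = 4.61e-07). Pdk4 was at 4.57, 4.73 and 4.87 against 6.66, 5.63 and 6.35, a change of -1.49 ± 0.24 (adjusted p = 0.000509), and Pdk1 at 7.40, 7.85 and 7.81 against 8.77, 8.76 and 8.64, a change of -1.04 ± 0.12 (adjusted p = 2.97e-05). Each of these 4 was lower on every day 5 array. Pdha1, Pdhb, Pdp1 and Taldo1 fell too, with differences of -0.56 ± 0.08, -0.59 ± 0.10, -0.66 ± 0.16 and -0.60 ± 0.11. Eno2, Pdk2 and Pck2, called on the unamplified ES arrays, were not called here, at 0.22 ± 0.16, 0.13 ± 0.13 and -0.21 ± 0.09. Fbp1 and Tkt, also called on the unamplified ES arrays, were not called here either.

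Between the iPS clones and ES cells at day 0, 7 of 38 members were called in the mean of both clones, where 4.87% of all genes were called (2.25% higher and 2.62% lower), and 6 of the 7 were lower in the clones. Ldhb was at 8.16, 8.13 and 8.31 in ST5 and 8.27, 8.39 and 8.16 in ST8 cells, against 8.95, 8.68 and 8.81 in ES cells, so that all 6 clone arrays lay below the ES arrays. The difference was -0.58 ± 0.10 (adjusted p = 0.00176). The other calls were under 0.5 log2 units and are named after their values were seen: Eno3 (-0.47), Fbp1 (-0.45), Pdk2 (-0.38), Slc2a1 (-0.28) and Tkt (-0.21) were lower and Pdhb (0.38) higher in the clones. The count dropped to 3 without ES day 0 replicate 1 or 2, to 4 without ES day 0 replicate 3, ST5 day 0 replicate 2 or 3, or ST8 day 0 replicate 1 or 3. Of 10 definitive endoderm markers 4 were higher in the clones and 0 lower. The mean level of this list was 6.45 to 7.01 in ST5 and 6.67 to 6.77 in ST8, against 5.94 to 6.13 in ES cells. Of 12 pluripotency markers 1 was higher and 1 lower, and of 10 fibroblast markers 1 was higher. The part of these lists in the 7 calls was not tested. Between ST8 and ST5 cells at day 0 no member was called by limma, 2 had an unadjusted p under 0.05, and 0.0652% of all genes were called.

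At day 5, 13 of 38 members were called between ST5 and ES cells, 2 higher and 11 lower in ST5, where 23.3% of all genes were called (11.6% higher and 11.8% lower), and among the brighter genes 33.5% beside 13 of 32 members. Pck2 was at 6.42, 6.69 and 6.64 in ST5 cells and 7.32, 7.80 and 7.90 in ES cells, a difference of -1.09 ± 0.17 (adjusted p = 0.000849). Pfkfb2 was at 7.61, 7.64 and 7.69 against 7.26, 6.33 and 6.41 and was higher in ST5 cells by 0.98 ± 0.21 (adjusted p = 0.00482). Pfkfb3 was at 6.70, 6.82 and 6.59 against 7.31, 7.88 and 7.88, a difference of -0.98 ± 0.34 (adjusted p = 0.046). For all 3 genes the ST5 arrays lay beyond the ES arrays, and ES replicate 1 was nearest to them. Groups lay apart in this way for 22 members and for 7894 of all 19938 genes. Eno2 was at 6.57, 6.44 and 6.53 against 6.83, 7.32 and 7.32, Dlat at 8.46, 8.60 and 8.43 against 8.92, 9.16 and 9.13 and Eno3 at 7.77, 7.75 and 7.76 against 7.87, 8.52 and 8.52. Their differences were -0.64 ± 0.18 (adjusted p = 0.0208), -0.58 ± 0.09 (adjusted p = 0.0011) and -0.55 ± 0.14 (adjusted p = 0.0105). The 7 smaller calls ran between -0.48 for Aldoc and 0.37 for Pgd. Marker lists moved between these groups too. Of 12 pluripotency markers 6 were lower and 1 higher in ST5, with a mean level of 5.77 to 5.85 in ST5 against 6.36 to 6.83 in ES cells. Of 6 visceral endoderm markers 4 were higher, with 7.3 to 7.5 against 5.6 to 6.3, and of 10 definitive endoderm markers 3 were higher, with 9.44 to 9.54 against 8.31 to 9.49. Of 10 fibroblast markers 4 were lower, with 5.08 to 5.2 against 5.16 to 5.61. The part of these lists in the 13 calls was not tested.

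The count of calls between ST5 and ES cells at day 5 was 16 without ES day 5 replicate 1 and 4 or 5 without ES day 5 replicate 2 or 3, and it was 9, 8 and 6 without ST5 day 5 replicates 1, 2 and 3. Without ES day 5 replicate 2 the adjusted p was 0.143 for Pfkfb3, 0.0908 for Eno2 and 0.0634 for Eno3, and without replicate 3 it was 0.155, 0.0956 and 0.0647. Pfkfb3 was also lost without ST5 day 5 replicate 1 (0.105), 2 (0.0807) or 3 (0.113) and with an intensity trend (0.0708), and Eno2 without ST5 day 5 replicate 2 (0.0629) or 3 (0.0501). Pck2, Pfkfb2 and Dlat were kept in every fit that left out an array. Between ST8 and ES cells at day 5 no member was called by limma and 5 had an unadjusted p under 0.05, where 0.958% of all genes were called.

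**Figure D3:**
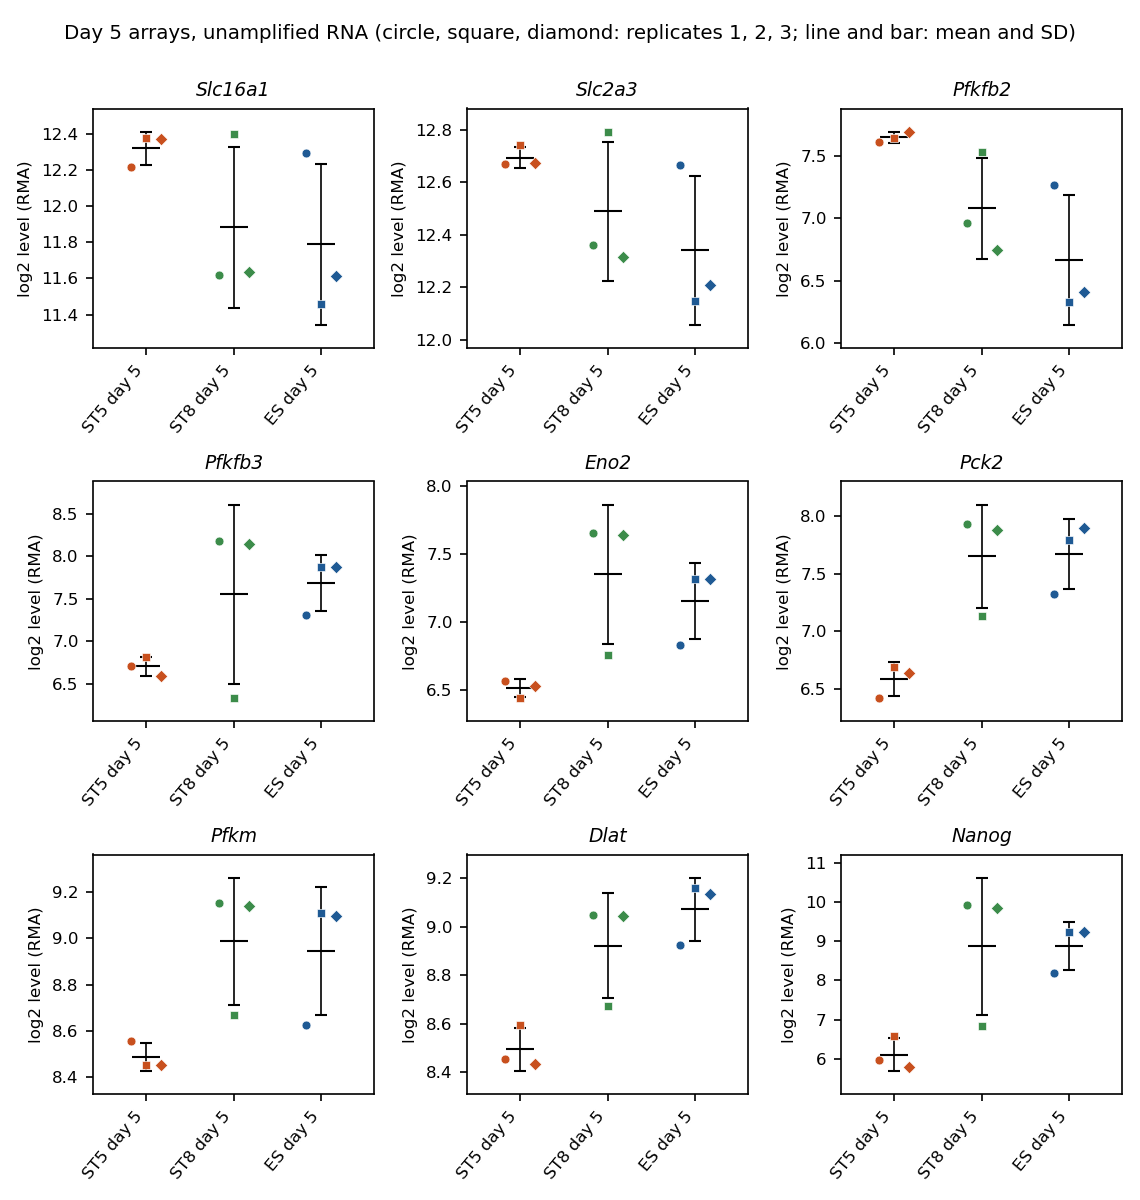
Log2 level (y axis) of members that spread at day 5, and of Nanog on each day 5 array of the 3 lines, with the shape of a point giving the replicate and lines and bars the mean and SD of 3. ES replicate 1 and ST8 replicate 2 lie nearer to the ST5 arrays than the other ES and ST8 arrays do.

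Between the clones at day 5, 11 members were called, all higher in ST8 than in ST5 cells, where 14.6% of all genes were called, 8.29% higher and 6.3% lower in ST8, and among the brighter genes 22.2% beside 11 of 32 members. Pck2 was at 7.94, 7.14 and 7.89 in ST8 cells and 6.42, 6.69 and 6.64 in ST5 cells, a difference of 1.07 ± 0.17 (adjusted p = 0.00172). Eno2 was at 7.66, 6.76 and 7.64 against 6.57, 6.44 and 6.53, a difference of 0.84 ± 0.18 (adjusted p = 0.00928), and Pfkm at 9.15, 8.67 and 9.14 against 8.56, 8.45 and 8.45, a difference of 0.50 ± 0.13 (adjusted p = 0.0208). In each of these 3, ST8 replicate 2 lay between the ST5 arrays and ST8 replicates 1 and 3. Aldoc was at 9.55, 9.15 and 9.47 against 8.70, 8.66 and 8.39, in the same order, and its difference was 0.81 ± 0.10 (adjusted p = 0.000264). The other 7 calls (Aldoa, Dlat, Hk2, Pdha1, Pdp1, Pfkl and Tkt) were under 0.5. Without ST8 day 5 replicate 2 the count was 23, 18 higher and 5 lower in ST8, and without ST8 day 5 replicate 1 or 3 it was 2. It was 7 without ST5 day 5 replicate 1 or 2 and 4 without replicate 3. Eno2 did not hold without ST8 day 5 replicate 1 (adjusted p = 0.0614) or 3 (0.0638), and Pfkm without those (0.111 and 0.119) or ST5 day 5 replicate 2 (0.0627) or 3 (0.0669). Pck2 and Aldoc were kept in every such fit, but a fit of these 6 arrays alone called no member by limma, with adjusted p of 0.106 for Pck2 and 0.0854 for Aldoc. Marker lists differed as well. Of 12 pluripotency markers 4 were higher and 1 lower in ST8, with a mean level of 5.92 to 6.97 in ST8 against 5.77 to 5.85 in ST5 cells. Of 10 definitive endoderm markers 1 was lower in ST8, as was 1 of 6 visceral endoderm markers. The part of these lists in the 11 calls was not tested.

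The response, the day 5 minus day 0 difference, was itself compared between lines. Between the mean of the clones and ES cells 1 member was called, Ldhb, where 2.14% of all genes were called. Its fall was smaller in the clones, -1.06 in ST5 and -0.98 in ST8 cells against -1.67 in ES cells, a difference of 0.65 ± 0.14 (adjusted p = 0.0198). As the day 0 levels above show, the lines differed at day 0 and overlapped at day 5. The call did not hold without ES day 5 replicate 2 (adjusted p = 0.0518) or 3 (0.078) or ES day 0 replicate 1 (0.0732) or 3 (0.0634), nor with the mean of its probe sets (0.0581). Without ES day 5 replicate 1 there were 5 calls, 4 higher and 1 lower. Between the clones 1 member was called, Aldoc, where 2.17% of all genes were called. It rose by 0.95 in ST8 and 0.33 in ST5 cells, a difference of 0.62 ± 0.14 (adjusted p = 0.0341). That call was lost without any 1 of 11 of the 12 clone arrays, with adjusted p between 0.0543 and 0.107, while without ST8 day 5 replicate 2 there were 16 calls, 11 higher and 5 lower.

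In the embryo, 3 of 38 members were called between foregut and ENDM1-negative cells, 2 higher and 1 lower, where 8.14% of all genes were called (3.71% higher and 4.43% lower), and the median difference was -0.07 beside 0.01 over all genes. Slc16a1 was at 10.32, 10.22 and 10.36 in foregut cells and 8.66, 8.91 and 8.79 in ENDM1-negative cells, a difference of 1.51 ± 0.23 (adjusted p = 0.00169). Pfkp was at 6.33, 6.21 and 6.62 against 7.03, 7.18 and 7.204, a difference of -0.75 ± 0.12 (adjusted p = 0.00223). Eno3 was at 9.09, 8.83 and 9.20 against 8.44, 8.37 and 8.72, a difference of 0.53 ± 0.14 (adjusted p = 0.0326). The groups did not overlap for these 3 genes, as was so for 12 members and for 5619 of all 19938 genes. Slc16a1 and Pfkp were called in every fit that left out an array, and Eno3 was lost without foregut replicate 1 (adjusted p = 0.109) or 3 (0.117) or ENDM1-negative replicate 1 (0.104) or 2 (0.11). Slc16a1 and Eno3 also rose and Pfkp also fell at day 5 on the amplified ES arrays, a comparison that shares no array with this one. Slc2a1 and Slc2a3 were not called, at 0.23 ± 0.10 (adjusted p = 0.214) and 0.48 ± 0.17 (adjusted p = 0.106), and the levels of Slc2a3, 11.62, 11.67 and 11.64 in foregut against 11.15, 11.09 and 11.26 in ENDM1-negative cells, did not overlap.

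**Figure D4:**
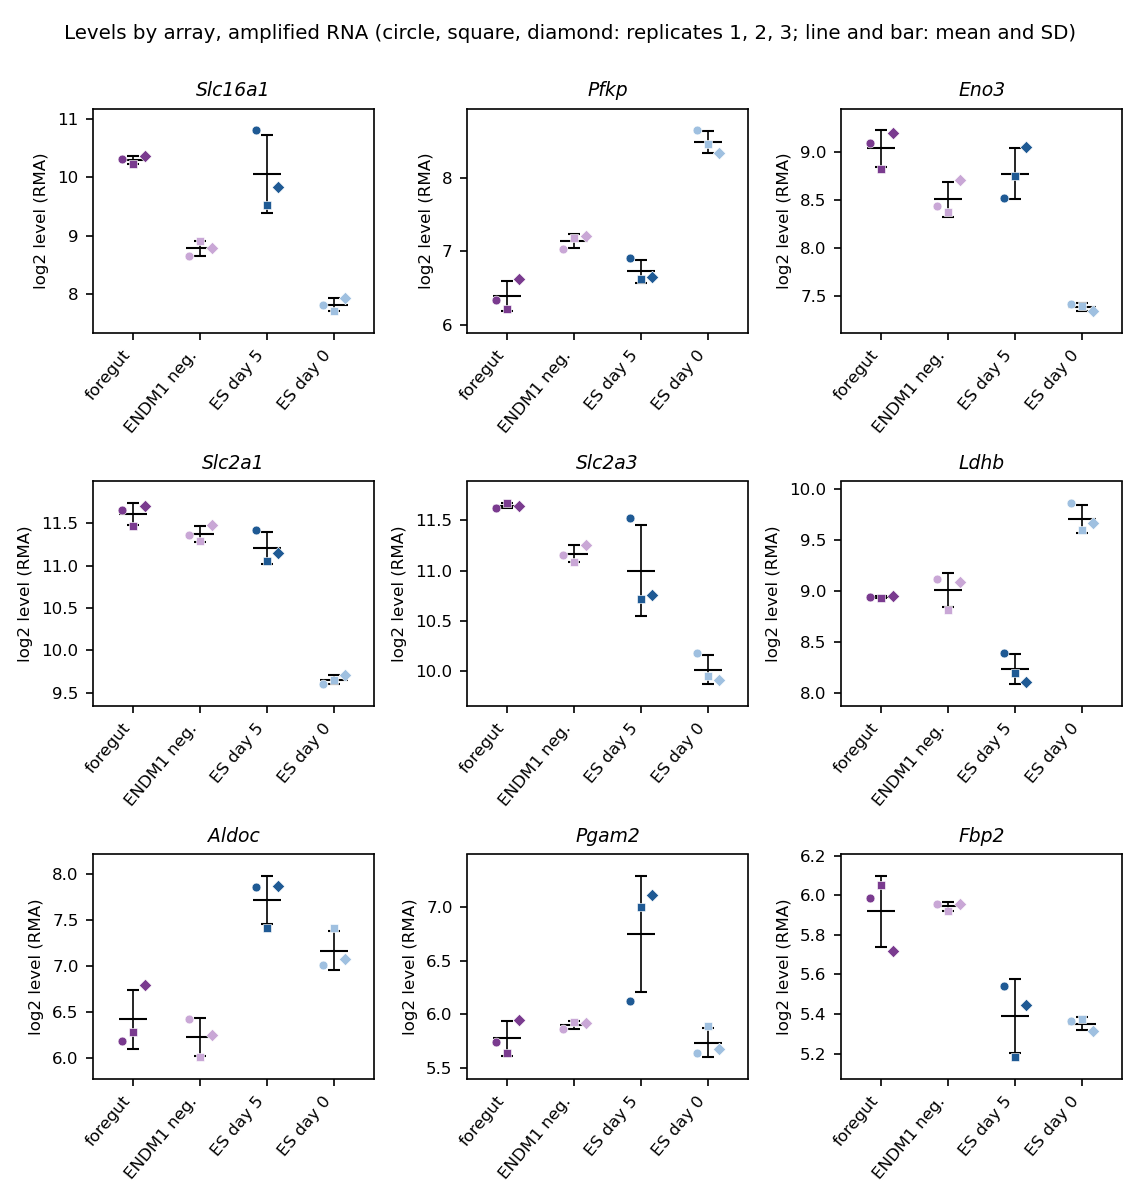
Log2 level (y axis) on the 12 amplified arrays, each point an array with its shape giving the replicate, and lines and bars the mean and SD of 3. Slc16a1 lies between 10.22 and 10.36 on foregut arrays and between 8.66 and 8.91 on ENDM1-negative arrays.

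Marker lists moved with this comparison too. Of 10 definitive endoderm markers 7 were higher in foregut cells, with a mean level of 7.41 to 7.63 against 6.44 to 6.59 in ENDM1-negative cells. Of 10 foregut markers 7 were higher and 1 lower, with 8 to 8.05 against 6.91 to 7.16. Of 12 pluripotency markers 1 was higher and 5 were lower. The visceral endoderm list also rose at day 5 in culture, with 5 of 6 markers called in each line. All 6 visceral endoderm markers were higher in foregut cells, with a mean level of 8.39 to 9.84 in foregut against 6.05 to 6.79 in ENDM1-negative cells. Of 6 endothelium markers 5 were lower, with a mean of 4.78 to 4.94 against 6.13 to 6.77, and of 8 surface ectoderm and neural markers 6 were lower, with a mean of 5.38 to 5.56 against 6.7 to 6.97. Of 6 blood markers 1 was higher, with a mean of 6.03 to 6.34 against 5.69 to 6.22, and the mean of 7 heart and mesoderm markers was 5.79 to 5.94 against 5.67 to 5.94. The part of these lists in the 3 calls was not tested.

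Between foregut cells and ES day 5 cells, both amplified, 11 members were called, 7 higher and 4 lower in foregut, where 24.2% of all genes were called (14.7% higher and 9.42% lower), and among the brighter genes 34.5% beside 9 of 31 members. Strain, extraction kit and source differed with the groups, so these cannot be told apart from cell type. All 6 visceral endoderm markers were higher in foregut, with a mean level of 8.39 to 9.84 in foregut against 6.31 to 7 in ES day 5 cells, as were 4 of 6 blood markers, with 6.03 to 6.34 against 4.57 to 4.83. Of the endothelium markers 2 of 6 were higher (4.78 to 4.94 against 4.42 to 4.52), and of the surface ectoderm and neural markers 2 of 8 (5.38 to 5.56 against 5.24 to 5.26). Of 12 pluripotency markers 3 were higher and 4 lower in foregut (5.64 to 5.89 against 6.32 to 6.87). Of 10 definitive endoderm markers 2 were higher and 3 lower (7.41 to 7.63 against 7.68 to 8.48). Of 10 foregut markers 2 were higher and 2 lower (8 to 8.05 against 7.47 to 7.77). The part of these lists in the 11 calls was not tested. Aldoc was at 6.19, 6.28 and 6.79 in foregut cells and 7.86, 7.42 and 7.88 in ES day 5 cells, a difference of -1.30 ± 0.18 (adjusted p = 0.000259). Pgam2 was at 5.74, 5.64 and 5.95 against 6.12, 6.997 and 7.11, a difference of -0.97 ± 0.20 (adjusted p = 0.00379). Ldhb was at 8.94, 8.93 and 8.96 against 8.40, 8.19 and 8.11, a difference of 0.71 ± 0.11 (adjusted p = 0.000461). Foregut arrays lay below all ES arrays for the first pair and above them for Ldhb. Groups lay apart in this way for 20 members and for 7996 of all 19938 genes. Slc2a3 was at 11.62, 11.67 and 11.64 against 11.52, 10.72 and 10.76, a difference of 0.65 ± 0.17 (adjusted p = 0.0145), and Fbp2 at 5.98, 6.05 and 5.72 against 5.54, 5.18 and 5.44, a difference of 0.53 ± 0.11 (adjusted p = 0.00319). ES replicate 1 was the nearest to the foregut arrays for Slc2a3, which did not hold without ES day 5 replicate 2 (adjusted p = 0.063) or 3 (0.0641) or in a fit of these 6 arrays alone (0.0544). The other 6 calls (Taldo1, Slc2a1, Pdk3, Fbp1, Tkt and Pck2) were under 0.5. The count was 6 without ES day 5 replicate 2, 8 without ES replicate 3 or foregut replicate 1 or 3, 13 without foregut replicate 2 and 14 without ES replicate 1.

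Further genes of the same pathways, 32 with a probe set, moved in both directions: 7 rose and 10 fell in ES cells at day 5, 9 and 10 in ST5 cells, 8 and 5 in ST8 cells, and 4 and 4 on the amplified ES arrays. Over all genes 38.6%, 47.9%, 40.5% and 26.9% were called in these comparisons, and the shares of this list in ST8 and amplified ES cells are near them. Pgm1, phosphoglucomutase, which links glycogen to glucose 6-phosphate, was at 9.26, 8.90 and 9.01 at day 5 and 7.91, 7.88 and 7.94 at day 0 in ES cells and rose by 1.15 ± 0.12 (adjusted p = 1.65e-06), with 1.42 ± 0.12 in ST5 and 1.81 ± 0.12 in ST8 cells. G6pc3, the widely expressed glucose 6-phosphatase, rose by 1.07 ± 0.15 (adjusted p = 1.78e-05) in ES cells and 1.35 ± 0.15 (adjusted p = 8.96e-07) in ST5 cells. Slc2a12, a glucose transporter, rose by 1.26 ± 0.24 (adjusted p = 0.000445) in ES cells and by 1.45 ± 0.24 in ST8 cells. Tigar, a fructose bisphosphatase that lowers glycolytic flux, fell in all 3 lines, with -1.004 ± 0.10 (adjusted p = 4.39e-07) in ES, -1.36 ± 0.10 (adjusted p = 9.20e-09) in ST5 and -1.20 ± 0.10 (adjusted p = 5.31e-08) in ST8 cells. Mpc1, a subunit of the mitochondrial pyruvate carrier, had -0.79 ± 0.13 (adjusted p = 0.000149), -0.87 ± 0.13 and -0.86 ± 0.13, and Rpe, an enzyme of the pentose phosphate pathway, -0.92 ± 0.10 (adjusted p = 1.42e-06) in ES and -0.92 ± 0.10 in ST8 cells.

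Hkdc1, which encodes a hexokinase domain protein, was at 7.05, 7.22 and 6.92 at day 5 and 4.98, 5.37 and 5.10 at day 0 in ST5 cells and rose by 1.91 ± 0.29 (adjusted p = 2.97e-05), with 1.47 ± 0.29 in ST8 cells. In the embryo Hkdc1 was at 6.45, 6.80 and 6.40 in foregut and 5.37, 5.00 and 4.89 in ENDM1-negative cells, a difference of 1.46 ± 0.20 (adjusted p = 0.000781). Slc2a2, which encodes the liver and islet transporter GLUT2, was at 5.77, 6.12 and 5.57 against 5.16, 4.97 and 5.26 and was higher in foregut by 0.69 ± 0.13 (adjusted p = 0.00696). Neither overlapped between these embryo groups. Ldhc, the testis lactate dehydrogenase, was the only further gene called lower there, at -0.53 ± 0.14 (adjusted p = 0.034).

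Of 27 measured regulators and targets of the hypoxia, Myc and glucose responses, 13 rose and 4 fell in ES cells at day 5, 17 and 6 in ST5, 14 and 3 in ST8 cells, and 12 and 2 on the amplified ES arrays. Over all genes 18.9% rose and 19.7% fell in ES, 23.2% and 24.8% in ST5, 21% and 19.5% in ST8 and 13% and 13.8% in amplified ES cells. The list's median differences were 0.36 in ES, 0.44 in ST5, 0.35 in ST8 and 0.36 in amplified ES cells, beside 0.02, -0.04, -0.01 and -0.02 over all genes. In ES cells the largest rises were of Egln3, an oxygen-sensing prolyl hydroxylase that hypoxia-inducible factor induces (1.25 ± 0.10 (adjusted p = 4.05e-08)), Vegfa, a vascular growth factor (1.22 ± 0.17 (adjusted p = 1.96e-05)), and P4ha1, a collagen prolyl hydroxylase (1.12 ± 0.12 (adjusted p = 1.39e-06)). Egln3 was at 8.15, 7.87 and 8.02 at day 5 and 6.82, 6.74 and 6.72 at day 0. Bnip3, a mitophagy receptor, rose by 1.51 ± 0.09 (adjusted p = 2.24e-09) in ST5 and 1.49 ± 0.09 (adjusted p = 3.24e-09) in ST8 cells. Mycn, the Myc family member of embryonic cells, was at 7.84, 8.23 and 7.95 against 10.12, 10.10 and 9.96 in ES cells and changed by -2.05 ± 0.22 (adjusted p = 1.59e-06), with -2.78 ± 0.22 in ST5 and -1.98 ± 0.22 in ST8 cells. Adm, adrenomedullin, fell in ES and ST5 cells, with -1.16 ± 0.20 (adjusted p = 0.000233) and -0.996 ± 0.20 (adjusted p = 0.000597). Whether hypoxia or Myc had a part in these changes was not tested.

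In foregut against ENDM1-negative cells 2 of these 27 genes were higher and 4 lower, where 3.71% of all genes were higher and 4.43% lower. Vegfa was at 7.85, 7.79 and 8.04 in foregut and 7.204, 7.08 and 7.13 in ENDM1-negative cells, a difference of 0.76 ± 0.09 (adjusted p = 0.00024), and P4ha1 differed by 0.59 ± 0.12 (adjusted p = 0.00869). Ndrg1, a stress-induced gene, was lower, at -0.68 ± 0.10 (adjusted p = 0.00117), as were Mycn, at -0.64 ± 0.13 (adjusted p = 0.0081), and Myc, at -0.81 ± 0.22 (adjusted p = 0.0367). Against ES day 5 cells, where kit, strain and source differ, 4 were higher and 6 lower in foregut, where 14.7% of all genes were higher and 9.42% lower. The largest fall was of Txnip, which restrains glucose uptake and is itself induced by glucose, with 8.33, 7.97 and 8.49 in foregut against 10.22, 10.42 and 10.47 in ES day 5 cells and a difference of -2.11 ± 0.14 (adjusted p = 7.31e-07). Arrdc4, a related arrestin that glucose also induces, differed by -1.14 ± 0.11 (adjusted p = 1.76e-05), and Egln3 by -1.17 ± 0.21 (adjusted p = 0.00141).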

How the data were processed

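The deposited values are log2 expression levels per probe set, made by the authors with RMA per the submitters' processing notes; its version, and whether RMA was run on both labellings at once, are not given in the sources used here. Of 35556 probe sets, 21789 name a single gene in the platform annotation; the brightest per gene gave 19938 genes. A linear model with 1 mean per group was fitted with limma 3.58.1 (R 4.3.3), to the 18 unamplified arrays (12 residual degrees of freedom) and the 12 amplified arrays (8) apart. Tests are two-sided, with Benjamini-Hochberg adjustment over all genes and a threshold of 0.05. Members called with at least 0.5 log2 units are named per array, others as counts, or by name where an isoform or neighbouring step; of the other lists the 3 largest calls each way. Members and lists were chosen with earlier results of these data known. On simulated data with the unamplified groups, 70% of genes changed by 0.5 and 94% of those changed by 1 were recovered among 19938 genes, and 4.71% of calls were false; with the amplified groups 54% and 92% were recovered, and 4.44% of calls were false. The simulation changed 50 genes at each size, with independent noise and the same spread of a gene in all groups. In the data far more genes were called and some arrays deviated across many genes, so these figures need not hold there. Alternatives changed the fit's arrays, scaling, filter, probe set rule, variance model, replicate block and single arrays. Samples of the same number did not deviate together in every pair, so numbers were not taken as pairs. Arrays have no read depth; how many there are sets the precision.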

Additional observations from a re-analysis of the deposited data

Results flagged for a closer look

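Among 38 members, 32 further pathway genes and 27 regulators and targets, the day 5 minus day 0 response was called different between lines for 5 genes. Over all genes 2.14% were called for the clones against ES cells and 2.17% for ST8 against ST5. The 5 calls are near these shares. For Ldhb the response was 0.65 ± 0.14 higher in the mean of the iPS clones than in ES cells (adjusted p = 0.0198), and for Aldoc it was 0.62 ± 0.14 higher in ST8 than in ST5 cells (adjusted p = 0.0341). As given above, neither call held in every fit that left out 1 array. Of the regulator list, Bnip3 had a response 0.48 ± 0.11 higher (adjusted p = 0.0398) and Arnt, the partner of hypoxia-inducible factor, 0.34 ± 0.08 higher (adjusted p = 0.0347) in the clones than in ES cells. Egln3 had a response 0.84 ± 0.14 higher in ST8 than in ST5 cells (adjusted p = 0.0113).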

How the results depend on the processing

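No alternative that was run turned the direction of any of the 144 calls of members. Leaving out 1 array at a time gave 23 to 27 called members for ES day 5 against day 0, 23 to 25 for ST5, 23 to 28 for ST8 and 19 to 22 for amplified ES cells. It gave 3 to 7 for the mean of the clones against ES cells at day 0, 4 to 16 for ST5 against ES and 0 to 3 for ST8 against ES cells at day 5, 0 for ST8 against ST5 at day 0 and 2 to 23 at day 5. It gave 0 to 5 and 0 to 16 for the responses of the clones against ES cells and of ST8 against ST5, 2 to 3 for foregut against ENDM1-negative cells and 6 to 14 for foregut against ES day 5 cells. Fitting only the groups of a comparison gave 0 members for ST8 against ST5 at day 5, 0 for their responses and 7 for foregut against ES day 5. The response of ST8 against ST5 had 2 members with arrays shifted to a common median, 3 without dim genes, 2 when probe sets of a gene were averaged and 2 with a robust variance trend. The response of the clones against ES cells had 2 with quantile normalization, 2 without dim genes, 0 with averaged probe sets and 2 with the trend. Foregut against ENDM1-negative cells had 9 with all 30 arrays in the fit, 6 without dim genes and 6 with the trend. With the replicate number as a block, 139 of the 144 calls were kept and 5 lost: Pfkfb2 in ST5 cells at day 5 (adjusted p = 0.0522), Slc2a1 between the clones and ES cells at day 0 (0.0622), Pfkfb3 between ST5 and ES cells at day 5 (0.0594), and Pdha1 (0.054) and Pdp1 (0.0604) between ST8 and ST5 cells at day 5. The numbers were not taken as pairs; between ST5 and ES cells at day 5 each ST5 array correlated best with the ES array of its own number (r = 0.164, 0.087 and 0.122), a hint from the data only. The cause of these moves was not tested, apart from the fewer arrays of the smaller fits.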
